A study of Mus musculus with 5 samples.

Results

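The genes of cholesterol and fatty acid synthesis are described here across 5 arrays of cultured mouse T helper (Th) cells. The list holds 32 genes, taken by their role in the pathways, and does not cover every enzyme of either pathway. A gene was measured where at least 1 transcript cluster, the group of probes that reports 1 transcript or gene, carries its symbol alone in the platform annotation, and where several do, the 1 with the highest average stands for it. By this rule 29 of the 32 were measured, among 22184 genes in all. *Idi1* and *Scd2* share their clusters with another symbol and *Acat2* has no cluster under that symbol, so these 3 are not analysed here.

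Naive CD4+ CD62L+ T cells from spleens of TRP-1 mice, which carry a transgenic receptor for tyrosinase-related protein-1, were cultured for 3 days with the TRP-1 peptide and irradiated, T cell-depleted spleen cells of C57BL/6 mice as antigen-presenting cells. Mice of the study were 6 to 8 weeks old, and the TRP-1 strain also carries a *Rag1* mutation and the B-w allele of *Tyrp1*. The 5 conditions were Th9(IL4+TGF-b+IL-1b) cells (10 ng/ml IL-4, 1 ng/ml TGF-β and 10 ng/ml IL-1β), Th9(IL4+IL-1b) cells (IL-4 and IL-1β at these doses), classic Th9(IL4+TGFb) cells (IL-4 and TGF-β at these doses), Th1 cells (IL-2 at 100 U/ml, IL-12 at 5 ng/ml and blocked IL-4) and Th2 cells (10 ng/ml IL-4 and IL-2 at 100 U/ml). All but the Th1 medium held an antibody against IFN-γ. Each condition was measured on 1 Mouse Gene 2.0 ST array. There is no replicate, so no test was possible, every difference is between 2 single arrays, and precision is limited by having so few arrays. Values are the log2 signals deposited by the authors, so that a difference of 1 is a 2-fold change, and they are compared between arrays for the same gene but not between genes.

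T cells that leave the resting state need membranes, and they make cholesterol and fatty acids for them. The transcription factors SREBP-1 and SREBP-2, encoded by *Srebf1* and *Srebf2*, control most of the enzymes. They are made as precursors in the membrane of the endoplasmic reticulum. When sterols are scarce, SCAP carries them to the Golgi, where they are cut free to enter the nucleus. When sterols are plentiful, the INSIG proteins hold SCAP back. Excess cholesterol also activates the LXR nuclear receptors, which induce the export pumps ABCA1 and ABCG1.

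All 29 measured genes had log2 values between 7.04 and 11.21, in the upper part of the arrays, whose medians were 5.41 to 5.44. Signature genes were set against the labels. *Il9*, the cytokine that names Th9 cells, was at 12.11 in Th9(IL4+TGF-b+IL-1b), 10.84 in Th9(IL4+IL-1b), 8.77 in classic Th9(IL4+TGFb), 4.49 in Th1 and 7.53 in Th2 cells. *Ifng*, the Th1 cytokine, was at 11.11 in Th1 cells and between 6.54 and 6.78 in the others, and *Gata3*, the Th2 regulator, at 6.85 in Th1 cells and between 10.28 and 10.50 in the others. The Th2 cytokines *Il13* and *Il5* were not highest in Th2 cells. *Il13* was at 10.06 in Th9(IL4+TGF-b+IL-1b), 11.07 in Th9(IL4+IL-1b), 6.37 in classic Th9(IL4+TGFb), 5.76 in Th1 and 8.11 in Th2 cells, and *Il5* at 5.61, 6.39, 4.67, 4.76 and 5.12 in the same order. Most of the lipid genes differed little between conditions. The gap between the highest and the lowest array had a median of 0.43 over the 29 genes (1.34-fold), against 0.33 over all genes. It was at least 1.5-fold for 7 of the 29 (24.1%), against 16.1% of all genes, and at least 2-fold for 1, *Scd1*, against 3.95% of all genes. The arrays were not alike in where the genes peaked. Of the 29, 16 were highest in Th9(IL4+TGF-b+IL-1b) cells, where 15.6% of all genes had their highest value. Another 6 were highest in Th2 cells (15.7% of all genes), 5 in classic Th9(IL4+TGFb) cells (23.3%), 1 in Th9(IL4+IL-1b) cells (19.8%) and 1 in Th1 cells (25.5%). The lowest value lay in Th1 cells for 14 (22.9% of all genes) and in classic Th9(IL4+TGFb) cells for 9 (18%). It lay in Th9(IL4+IL-1b) cells for 4 (25.2%), in Th9(IL4+TGF-b+IL-1b) cells for 2 (15.2%) and in Th2 cells for 0 (18.7%). Of the 7306 genes whose mean value lies in the range of the 29, 2381 were lowest in Th1 cells. Of the same genes, 877 were highest in Th9(IL4+TGF-b+IL-1b) cells.

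**Figure D1:**
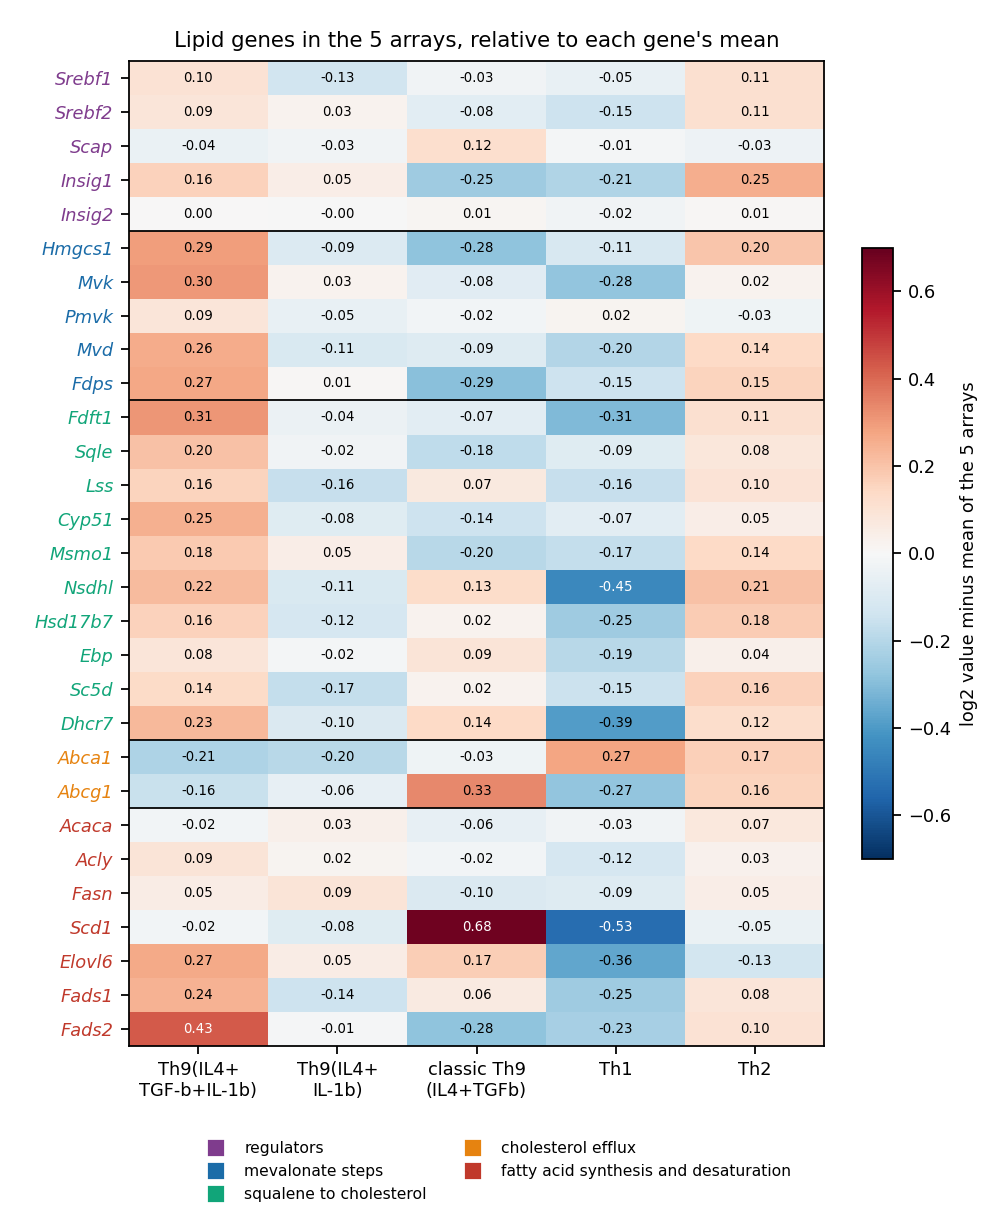
Log2 value of each of the 29 measured genes (rows, grouped and coloured by role) in the 5 arrays (columns), given as the difference from the gene's own mean over the arrays. The columns of Th9(IL4+TGF-b+IL-1b) and Th2 cells are mostly red (higher) for the sterol enzymes and that of Th1 cells is mostly blue (lower), while *Scd1* is 0.68 above its mean in classic Th9(IL4+TGFb) cells.

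The mevalonate steps turn acetyl units into farnesyl diphosphate, the shared precursor of sterols and of the lipid anchors of proteins. All 5 measured genes of these steps were highest in Th9(IL4+TGF-b+IL-1b) cells. *Hmgcs1*, the cytosolic HMG-CoA synthase, was at 10.85 in Th9(IL4+TGF-b+IL-1b) cells, 10.47 in Th9(IL4+IL-1b) cells, 10.28 in classic Th9(IL4+TGFb) cells, 10.45 in Th1 cells and 10.76 in Th2 cells. The highest array was thus 1.48-fold above the lowest, classic Th9(IL4+TGFb) cells. *Fdps*, which makes farnesyl diphosphate, had 9.92 in Th9(IL4+TGF-b+IL-1b), 9.65 in Th9(IL4+IL-1b), 9.35 in classic Th9(IL4+TGFb), 9.50 in Th1 and 9.80 in Th2 cells, the same order of arrays as for *Hmgcs1*. *Mvk*, mevalonate kinase, stood at 8.41, 8.13, 8.03, 7.83 and 8.13 in this order of conditions, and its lowest array was that of Th1 cells. *Mvd*, the decarboxylase that makes isopentenyl diphosphate, had 8.91, 8.54, 8.55, 8.44 and 8.78 in the same order. *Pmvk*, phosphomevalonate kinase, hardly moved, with 8.77, 8.63, 8.66, 8.70 and 8.66.

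**Figure D2:**
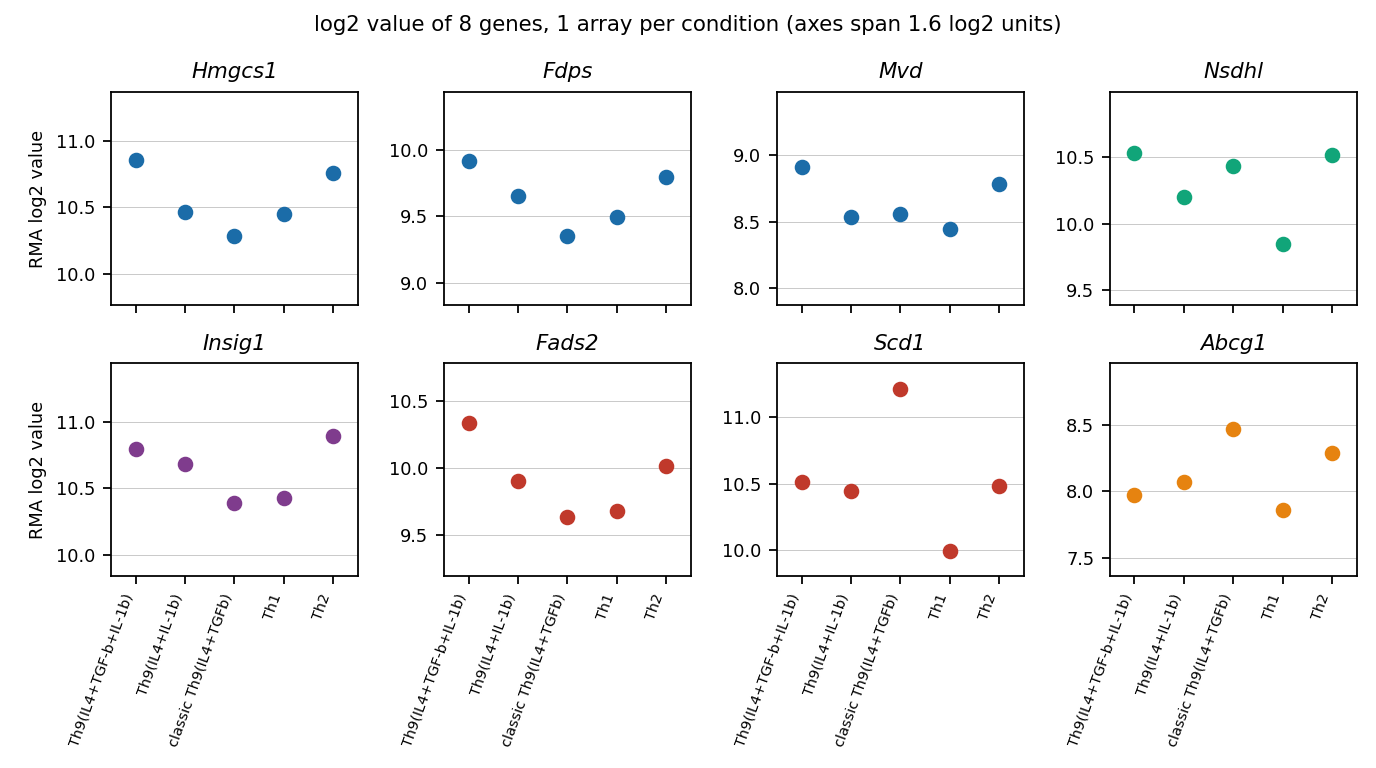
RMA log2 value (vertical axis, 1.6 units in every panel) of 8 of the genes in each condition (horizontal axis), with 1 point per array and no error bar because there is 1 array per condition. *Hmgcs1*, *Fdps*, *Mvd* and *Fads2* are highest in Th9(IL4+TGF-b+IL-1b) cells, *Insig1* in Th2 cells, and *Scd1* and *Abcg1* in classic Th9(IL4+TGFb) cells.

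The later steps join farnesyl units to squalene and turn squalene into cholesterol. Of the 10 genes of these steps, 7 were highest in Th9(IL4+TGF-b+IL-1b) cells, 2 in Th2 cells and 1 in classic Th9(IL4+TGFb) cells. *Fdft1*, squalene synthase, was at 10.89 in Th9(IL4+TGF-b+IL-1b) cells, 10.54 in Th9(IL4+IL-1b) cells, 10.51 in classic Th9(IL4+TGFb) cells, 10.27 in Th1 cells and 10.69 in Th2 cells. *Nsdhl*, a sterol dehydrogenase of the demethylation steps, had the widest range of the sterol enzymes, with 10.53, 10.20, 10.43, 9.85 and 10.51 in the same order. Its value in Th1 cells stood apart below the other 4. *Dhcr7*, which reduces 7-dehydrocholesterol to cholesterol, showed the same shape, with 10.13, 9.80, 10.04, 9.51 and 10.02.

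The remaining genes of these steps spanned less. *Sqle*, squalene epoxidase, ran between 9.14 and 9.52, *Cyp51*, the lanosterol demethylase, between 10.03 and 10.42, and *Msmo1*, a sterol-C4-methyl oxidase, between 8.76 and 9.14. These 3 had their lowest value in classic Th9(IL4+TGFb) cells and their highest in Th9(IL4+TGF-b+IL-1b) cells. *Lss*, lanosterol synthase, lay between 9.69 and 10.01, *Hsd17b7* between 8.44 and 8.86, *Sc5d*, the sterol desaturase, between 9.81 and 10.14, and *Ebp*, the sterol isomerase, between 9.24 and 9.53. These 4 were lowest in Th1 or in Th9(IL4+IL-1b) cells.

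Of the regulators, *Insig1*, itself a target of SREBP, was the gene that differed most. It was at 10.80 in Th9(IL4+TGF-b+IL-1b) cells, 10.68 in Th9(IL4+IL-1b) cells, 10.39 in classic Th9(IL4+TGFb) cells, 10.43 in Th1 cells and 10.89 in Th2 cells. Its paralog *Insig2* was flat, between 7.55 and 7.58 in the 5 arrays. *Srebf2*, whose product acts mainly on sterol enzymes, ranged between 10.64 in Th1 and 10.89 in Th2 cells. *Srebf1*, whose products act more on fatty acid enzymes, ranged between 8.91 in Th9(IL4+IL-1b) and 9.15 in Th2 cells. *Scap* ranged between 9.90 in Th9(IL4+TGF-b+IL-1b) and 10.06 in classic Th9(IL4+TGFb) cells. For these 3 the widest gap between 2 arrays was 1.19-fold, against the 1.48-fold of *Hmgcs1*. The cutting of SREBP, which sets its activity, is not measured by an array.

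The fatty acid genes did not share a single pattern over the 5 arrays. All 7 measured ones were lower in Th1 than in Th2 cells, with a median difference of -0.23, where 47.7% of all genes were lower. *Acly*, which supplies acetyl-CoA in the cytosol, *Acaca*, the acetyl-CoA carboxylase, and *Fasn*, the fatty acid synthase, differed by at most 1.15-fold between any 2 arrays. Their ranges were 10.73 to 10.93, 8.51 to 8.64 and 10.71 to 10.90. *Fads2*, a desaturase of polyunsaturated fatty acids, varied like *Hmgcs1*, with 10.34 in Th9(IL4+TGF-b+IL-1b) cells, 9.90 in Th9(IL4+IL-1b) cells, 9.63 in classic Th9(IL4+TGFb) cells, 9.68 in Th1 cells and 10.02 in Th2 cells. *Fads1*, another such desaturase encoded beside it on chromosome 19, had 9.87, 9.48, 9.68, 9.38 and 9.71 in the same order. Its value in classic Th9(IL4+TGFb) cells was close to that in Th2 cells, unlike that of *Fads2*.

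*Scd1*, the stearoyl-CoA desaturase that makes monounsaturated fatty acids, stood out. It was at 10.51 in Th9(IL4+TGF-b+IL-1b) cells, 10.45 in Th9(IL4+IL-1b) cells, 11.21 in classic Th9(IL4+TGFb) cells, 9.998 in Th1 cells and 10.48 in Th2 cells. Classic Th9(IL4+TGFb) cells were thus high, Th1 cells low, and the other 3 arrays lay within 0.07 of each other. The highest array was 2.32-fold above the lowest. *Elovl6*, the elongase that extends palmitate to stearate, the substrate of SCD1, had 10.20, 9.99, 10.11, 9.57 and 9.81 in this order of conditions, lowest in Th1 cells as well.

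The export pumps did not peak with the enzymes. *Abca1* was highest in Th1 cells, with 7.04 in Th9(IL4+TGF-b+IL-1b), 7.06 in Th9(IL4+IL-1b), 7.23 in classic Th9(IL4+TGFb), 7.53 in Th1 and 7.42 in Th2 cells. *Abcg1* was highest in classic Th9(IL4+TGFb) cells, with 7.97, 8.07, 8.47, 7.86 and 8.29 in the same order. In both arrays with IL-1β, *Abca1* and *Abcg1* were below their values in classic Th9(IL4+TGFb) and in Th2 cells.

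Set out next are the start sites of 4 of the 5 genes whose effect of IL-1β was at least 1.5-fold larger with TGF-β than without it, *Hmgcs1*, *Fads2*, *Insig1* and *Mvd*, with that of the flat *Insig2* beside them. They were chosen by these values, which are given below with the contrasts. *Fdps* is the fifth and is named only. The windows of RefSeq (build GRCm38.p6) run over 250 bases before and 50 after the start and were searched on both strands for a sterol regulatory element (TCACNCCAC), the CCAAT box bound by NF-Y, a usual partner of SREBP (CCAAT), and the E-box (CACGTG). Capitals mark each match, ATTGG being CCAAT on the other strand, and no match shown overlaps another.
*Hmgcs1*, chr13:119690101-119690400 (plus strand): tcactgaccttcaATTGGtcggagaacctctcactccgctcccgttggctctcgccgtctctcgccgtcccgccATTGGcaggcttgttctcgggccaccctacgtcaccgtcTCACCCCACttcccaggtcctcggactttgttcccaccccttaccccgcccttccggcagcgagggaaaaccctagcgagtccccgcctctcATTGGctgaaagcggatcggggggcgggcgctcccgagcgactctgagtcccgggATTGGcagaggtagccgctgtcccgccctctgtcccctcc
*Mvd*, chr8:122443373-122443672 (minus strand): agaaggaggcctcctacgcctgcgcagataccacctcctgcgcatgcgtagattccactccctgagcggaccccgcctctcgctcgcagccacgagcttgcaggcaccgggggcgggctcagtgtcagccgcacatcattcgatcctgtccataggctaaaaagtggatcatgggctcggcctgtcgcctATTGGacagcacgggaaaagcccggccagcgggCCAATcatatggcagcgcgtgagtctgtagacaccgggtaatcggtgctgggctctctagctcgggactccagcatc
*Insig1*, chr5:28071162-28071461 (plus strand): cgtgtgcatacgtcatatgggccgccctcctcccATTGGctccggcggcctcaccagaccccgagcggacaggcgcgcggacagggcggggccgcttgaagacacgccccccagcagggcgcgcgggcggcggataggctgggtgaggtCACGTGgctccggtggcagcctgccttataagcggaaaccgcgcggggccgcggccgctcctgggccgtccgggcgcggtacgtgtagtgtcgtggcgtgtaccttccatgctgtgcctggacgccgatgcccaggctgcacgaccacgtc
*Fads2*, chr19:10101454-10101753 (minus strand): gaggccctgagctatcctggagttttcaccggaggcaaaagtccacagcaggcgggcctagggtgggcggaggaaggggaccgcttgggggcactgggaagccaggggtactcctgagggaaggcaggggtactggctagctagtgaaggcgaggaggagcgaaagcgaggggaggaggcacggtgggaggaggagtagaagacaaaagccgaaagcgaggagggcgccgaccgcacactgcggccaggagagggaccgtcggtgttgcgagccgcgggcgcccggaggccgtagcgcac
*Insig2*, chr1:121332540-121332839 (minus strand): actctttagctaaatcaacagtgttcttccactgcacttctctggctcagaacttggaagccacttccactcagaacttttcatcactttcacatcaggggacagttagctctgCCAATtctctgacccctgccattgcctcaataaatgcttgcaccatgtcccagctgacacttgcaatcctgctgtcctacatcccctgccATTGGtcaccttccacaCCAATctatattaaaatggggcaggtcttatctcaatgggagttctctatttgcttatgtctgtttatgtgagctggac

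The *Hmgcs1* window held the only sterol regulatory element match among the 31 windows found for 23 of the 29 measured genes, with its first base at -137 from the start, and 4 CCAAT boxes. Such an element was in 1.24% of all 32851 windows. *Mvd* had 2 CCAAT boxes, *Insig1* 1 with an E-box, and *Fads2* no match to any of the 3 motifs although its values varied like those of *Hmgcs1*. The flat *Insig2* has 3 windows, of which the 1 shown had 3 CCAAT boxes and the others no match to any of the 3 motifs. Of the 15 measured sterol enzymes 12 have windows, 15 in all with 3 for *Dhcr7* and 2 for *Pmvk*, while *Fdft1*, *Sqle* and *Fdps* are named only. A CCAAT box was in 12 of these 15 windows (80%), against 37.4% of all windows and 2 of 5 windows of the fatty acid genes. An E-box was in 3 of the 15 (20%), against 7.15% of all windows. A match describes these letters only.

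The RNA came from whole cultures, and markers of other cells were present. T cell genes were high throughout, with *Cd3e* between 12.43 and 12.71 and *Cd4* between 11.91 and 12.40. B cell genes were high too, with *Cd79a* between 11.74 and 12.33. In bulk RNA fewer cells of a type and less RNA per cell cannot be told apart. Marker lists are given as median deviations of the genes from their own means. The 7 measured T cell markers of 10 had 0.01 in Th9(IL4+TGF-b+IL-1b), -0.23 in Th9(IL4+IL-1b), 0.20 in classic Th9(IL4+TGFb) and -0.05 in both Th1 and Th2 cells. The 8 measured B cell markers of 9 had median deviations from their own means of -0.12 in Th9(IL4+TGF-b+IL-1b), 0.16 in Th9(IL4+IL-1b), -0.32 in classic Th9(IL4+TGFb), -0.09 in Th1 and 0.39 in Th2 cells. The sterol enzymes had 0.22, -0.08, -0.07, -0.17 and 0.12 in the same order. The 6 plasma cell markers had -0.28, 0.76, -0.58, -0.51 and 0.61. The 12 macrophage and dendritic cell markers measured of 13 had 0.13, 0.10, -0.12, 0.01 and 0.16. The 11 proliferation markers measured of 12 had deviations of -0.01, -0.04, 0.09, 0.01 and -0.02, and none of the 11 spanned 1.5-fold between arrays. The median difference of each of these 5 lists is given with every contrast below, and the part of these cells in the differences of the lipid genes was not tested.

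The comparison at the centre of the study sets Th9(IL4+IL-1b) against classic Th9(IL4+TGFb) cells. The lipid genes as a whole did not separate these 2 arrays. Their median log2 difference was -0.02, against -0.03 over all genes, and 13 of 29 were above 0, against 45.5% of all genes. Of the 29, 0 were at least 1.5-fold higher in Th9(IL4+IL-1b) cells, where 2.7% of all genes were, and 1 was at least 1.5-fold lower, where 2.34% were. The 1 was *Scd1*, with a difference of -0.77. The next lowest was *Abcg1* at -0.39. The most positive were *Fdps* at 0.30, *Insig1* at 0.29 and *Fads2* at 0.27. Median differences of the cell markers were -0.44 for T cells, 0.49 for B cells, 1.24 for plasma cells, 0.21 for macrophages and dendritic cells and -0.16 for proliferation.

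IL-1β without TGF-β is read from Th9(IL4+IL-1b) against Th2 cells, although the Th2 medium also held IL-2. Here the sterol enzymes were slightly lower with IL-1β, 14 of the 15 measured ones, with a median of -0.15 and a range of -0.33 (*Sc5d*) to 0.00 (*Mvk*). Over the 29 genes the median was -0.13 and 25 were below 0, against a median of -0.01 and 51.3% below 0 among all genes. None of the differences reached 1.5-fold in either direction, which 1.26% of all genes did upward and 1.14% downward. The most negative were *Abca1* at -0.36 and *Sc5d*, and the most positive was *Elovl6* at 0.18. The T cell markers had a median difference of -0.17, the B cell markers -0.21, the plasma cell markers 0.24, the macrophage and dendritic cell markers -0.10 and the proliferation markers -0.05.

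IL-1β with TGF-β is read from Th9(IL4+TGF-b+IL-1b) against classic Th9(IL4+TGFb) cells, and here the sterol enzymes were higher with IL-1β. Of the 15, 14 were above 0, with a median of 0.35 and a range of -0.01 (*Ebp*) to 0.57 (*Hmgcs1*). Over the 29 genes the median was 0.13 and 23 were above 0, against -0.01 and 48% of all genes. *Fads2* was the only 1 at least 1.5-fold higher, by 0.71, against 0.865% of all genes, and *Scd1* the only 1 at least 1.5-fold lower, at -0.70, against 1.1%. *Hmgcs1* at 0.57 and *Fdps* at 0.56 lay just under the threshold of 0.58. With the threshold at a log2 difference of 0.32, 10 of the 29 were higher, against 5.36% of all genes and 2.81% of the 7306 genes whose mean value lies in the range of the 29. The sterol enzymes fell into 2 sets, seen after the values were known. *Hmgcs1*, *Mvk*, *Mvd*, *Fdps*, *Fdft1*, *Sqle*, *Cyp51* and *Msmo1* were higher by 0.35 to 0.57, and *Pmvk*, *Lss*, *Nsdhl*, *Hsd17b7*, *Ebp*, *Sc5d* and *Dhcr7* differed by -0.01 to 0.14. Among the marker lists the median difference was -0.15 for T cells, 0.13 for B cells, 0.29 for plasma cells, 0.23 for macrophages and dendritic cells (10 of 12 above 0) and -0.10 for proliferation.

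**Figure D3:**
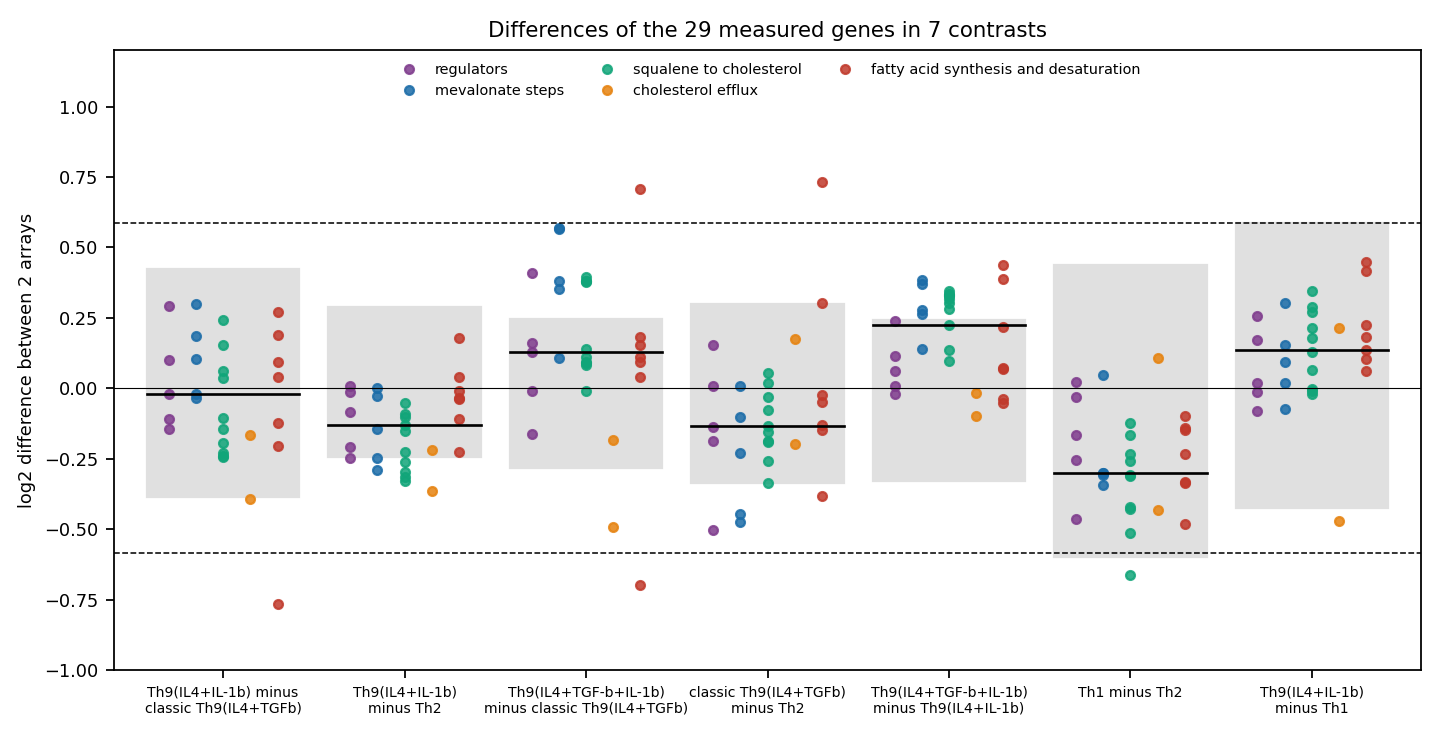
Log2 difference between 2 arrays (vertical axis) of each of the 29 genes (points, coloured by role) in 7 contrasts (horizontal axis), with the black bar at their median. The grey box holds the middle 90% of the 7306 genes with mean values in the same range, and the dashed lines mark 1.5-fold. Most sterol enzymes lie above 0 in both contrasts with Th9(IL4+TGF-b+IL-1b) cells on top and below 0 in Th1 minus Th2.

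TGF-β without IL-1β is read from classic Th9(IL4+TGFb) against Th2 cells, although the Th2 medium also held IL-2. *Scd1* was higher in classic Th9(IL4+TGFb) cells by 0.73, the only 1 of the 29 at least 1.5-fold higher (1.28% of all genes), and 0 were at least 1.5-fold lower (1.77%). The lowest differences were those of *Insig1* at -0.50, *Hmgcs1* at -0.48, *Fdps* at -0.45 and *Fads2* at -0.38. Of the sterol enzymes, 12 of 15 were below 0, with a median of -0.15, and of the 29 genes 21 were, against 45.9% of all genes. The marker medians were 0.22 for T cells, -0.60 for B cells, -0.99 for plasma cells, -0.24 for macrophages and dendritic cells and 0.13 for proliferation.

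TGF-β with IL-1β is read from Th9(IL4+TGF-b+IL-1b) against Th9(IL4+IL-1b) cells. All 15 measured sterol enzymes were higher in the array with TGF-β, by 0.10 (*Ebp*) to 0.38 (*Hmgcs1*), with a median of 0.30. Over the 29 genes the median was 0.23 and 24 were above 0, against 0.01 and 52.4% of all genes. *Fads2* had the largest difference, 0.44, and *Fads1* the next, 0.39. None reached 1.5-fold in either direction, as 1.21% of all genes did upward and 1.79% downward. With the threshold at 0.32, 8 of the 29 were higher, against 8.76% of all genes and 2.85% of the 7306 genes in the same range. *Scd1* differed by 0.07 here. The T cell markers were higher as well, with a median of 0.19 (6 of 7 above 0), while the B cell markers had -0.27, the plasma cell markers -1.04, the macrophage and dendritic cell markers -0.14 and the proliferation markers 0.03.

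The pairs of contrasts with and without the other cytokine share no array, so the effects can be set side by side. The effect of IL-1β with TGF-β minus that without it was above 0 for 25 of the 29 genes, with a median of 0.37, against 48.1% of all genes and a median of -0.01. For the sterol enzymes it was above 0 in 15 of 15, with a median of 0.44, and for the 5 mevalonate genes the median was 0.60. It was at least 0.58, a ratio of 1.5, for 5 of the 29, against 3.12% of all genes and 0.383% of the 7306 in the same range. It was at most -0.58 for 1, *Scd1* at -0.66, against 2.94% and 0.342%. Of the 29, 20 were lower with IL-1β without TGF-β and higher with IL-1β when TGF-β was present, as were 21.9% of all genes. The same number is the effect of TGF-β with IL-1β minus that without it. For this quantity the 8 B cell markers had a median of 0.34 (7 above 0) and the 12 macrophage and dendritic cell markers 0.30 (10 above 0), close to the median of the 29 lipid genes. The largest among the macrophage and dendritic cell markers, *Siglech* at 0.87 and *Xcr1* at 0.56, came from dim signals, below the array medians of 5.41 to 5.44 in every array. The T cell markers had 0.02, the plasma cell markers 0.03 and the proliferation markers -0.12. Their part in the result was not tested. Each value rests on 4 single arrays, and the IL-2 in the Th2 medium alone among these 4 cannot be told apart from the cytokine effects.

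**Figure D4:**
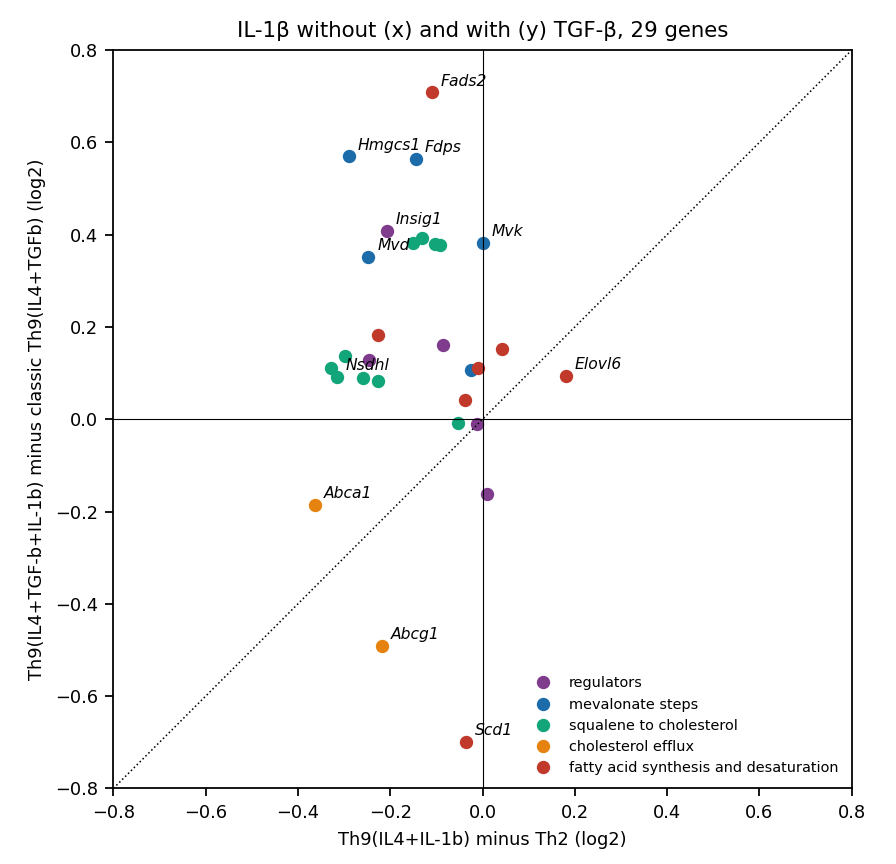
Log2 difference with IL-1β where TGF-β was absent (horizontal axis, Th9(IL4+IL-1b) minus Th2 cells) and where it was present (vertical axis, Th9(IL4+TGF-b+IL-1b) minus classic Th9(IL4+TGFb) cells) for the 29 genes, coloured by role, with the dotted line at equal differences. Of the 29, 20 lie in the upper left part, led by *Fads2*, *Hmgcs1* and *Fdps*, while *Scd1* lies at -0.03 and -0.70.

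Th1 and Th2 cells shared IL-2 and differed in the other additions. The lipid genes were mostly lower in Th1 than in Th2 cells, with a median of -0.30 over the 29 against 0.01 over all genes, and 26 of 29 were below 0, against 47.7% of all genes. *Nsdhl*, at -0.66, was the only 1 at least 1.5-fold lower (3.29% of all genes), and 0 were at least 1.5-fold higher (2.55%). *Dhcr7* followed at -0.51, *Scd1* at -0.48, *Insig1* at -0.47 and *Abcg1* and *Hsd17b7* at -0.43. With the threshold at 0.32, 10 of the 29 were lower, against 9.47% of all genes and 864 of the 7306 genes in the same range. The lipid genes above 0 were *Abca1* at 0.11, *Pmvk* at 0.05 and *Scap* at 0.02. Between the same arrays the B cell markers had a median difference of -0.49 and the plasma cell markers -1.32, against -0.00 for T cell, -0.01 for macrophage and dendritic cell and 0.05 for proliferation markers.

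Set against Th1 cells, Th9(IL4+IL-1b) cells had mostly higher values. Of the 29 genes, 22 were higher in Th9(IL4+IL-1b) cells, with a median of 0.14, against 46.2% of all genes and a median of -0.02. None of the 29 was at least 1.5-fold higher or lower, as 3.94% and 2.94% of all genes were. *Scd1* had the largest positive difference, 0.45, then *Elovl6* with 0.41, and *Abca1* the most negative, -0.47. The plasma cell markers were higher too, with a median of 1.47 (6 of 6 above 0), and the B cell markers with 0.20 (6 of 8), while the T cell markers had -0.16, the macrophage and dendritic cell markers -0.03 and the proliferation markers -0.04.

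Genes of the same pathways outside the list were also read. Of 6 measured further sterol and isoprenoid genes, 0 reached 1.5-fold in any contrast. In Th1 against Th2 cells all 6 were below 0, as were 14 of the 15 sterol enzymes and 47.7% of all genes. In Th9(IL4+TGF-b+IL-1b) against Th9(IL4+IL-1b) cells all 15 sterol enzymes were higher. Of the 6 further genes, 3 were above 0 there, with a median of 0.00, against 52.4% of all genes. *Tm7sf2*, a sterol reductase, was at 0.38, *Stard4*, a sterol carrier, at 0.26 and *Lbr*, a lamin B receptor with sterol reductase activity, at 0.09, against *Ggps1*, which makes geranylgeranyl diphosphate, at -0.15 and *Nus1* and *Dhdds*, the subunits of the enzyme for dolichol chains, at -0.11 and -0.08. Of 8 genes of sterol sensing, LXR response and storage, *Smpdl3a*, a phosphodiesterase, reached 1.5-fold, higher in Th1 than in Th2 cells by 0.79. In Th9(IL4+TGF-b+IL-1b) against classic Th9(IL4+TGFb) cells 5 of the 8 were above 0, with a median of 0.03, against 48% of all genes. The 8 ran between *Mylip*, which encodes an LXR-induced ligase for lipoprotein receptors, at -0.52 and *Ch25h*, the cholesterol 25-hydroxylase, at 0.55. The signal of *Ch25h* was dim, with 4.73 and 4.19 in these arrays, below the array medians.

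Of 10 further fatty acid synthesis genes, 9 were above 0 in Th9(IL4+TGF-b+IL-1b) against Th9(IL4+IL-1b) cells, with a median of 0.10. Above 0 in this contrast were 5 of the 7 measured ones on the list and 52.4% of all genes. *Me1*, the malic enzyme that supplies NADPH, was at 7.95 in Th1 cells and 4.76 in Th2 cells, a difference of 3.19, the opposite of the enzymes above. Its signal in Th2 cells was dim, below the array medians of 5.41 to 5.44. In Th9(IL4+IL-1b) cells *Me1* was at 5.47, higher than in Th2 cells by 0.71. *Gpam*, which starts glycerolipid synthesis, was lower in Th1 than in Th2 cells, with a difference of -1.14. Of 8 fatty acid oxidation genes, *Cpt1a*, which admits long-chain fatty acids to mitochondria, was at 9.20 in Th1 cells and 10.20 in Th2 cells. *Acaa2*, a mitochondrial thiolase, was lower in Th9(IL4+IL-1b) than in classic Th9(IL4+TGFb) cells, with a difference of -0.76, next to the -0.77 of *Scd1*.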

How the data were processed

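RNA of 5 cultures, 1 array each, was measured on Mouse Gene 2.0 ST arrays. The log2 values deposited by the authors were made with RMA in Affymetrix Expression Console (no version was stated in the sources used), which corrects background, normalizes the arrays and summarizes the probes of each transcript cluster. They were used as deposited. The table holds 41345 transcript clusters with 0 missing values. The annotation gives 1 symbol for 23525 and more than 1 for 1816, and 16004 clusters stay unnamed. A gene is its cluster with the highest mean. *Scap* has 2 clusters, the other members 1.

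Differences of log2 values were taken for 7 pairs of arrays and counted at 1.5-fold. With 1 array per condition no p-value was computed. Counts are set beside those over all 22184 genes and, as a choice made after seeing the data, over the 7306 genes with a mean value in the range of the members. Members, gene lists and thresholds were chosen with earlier results of these data known. All measured members are named. Of other lists, genes past 1.5-fold are named, and the further sterol genes, *Mylip*, *Ch25h*, the markers and the signature genes (*Il9*, *Ifng*, *Gata3*, *Il13*, *Il5*) after their values were seen. Alternatives were centring on array medians, a second quantile normalization, log2(value + 16), the mean over clusters, means in place of medians, other thresholds and a filter on low values. The procedure was tested on simulated data with noise of standard deviation 0.1 and planted 2-fold changes, which are larger than nearly all differences of the lipid genes. It therefore says nothing on smaller ones. Python 3.11.15, numpy 2.4.6 and pandas 2.3.3 were used.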

Additional observations from a re-analysis of the deposited data

Results flagged for a closer look

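For 5 of the 29 genes the 2 effects of IL-1β had opposite signs and lay at least 1.5-fold apart, lower without TGF-β and higher with it, as did 2.80% of all genes and 0.26% of the 7306 genes in the same range of values. The effect with TGF-β minus that without it was 0.86 for *Hmgcs1* (0.57 with TGF-β, -0.29 without), 0.82 for *Fads2* (0.71 and -0.11), 0.71 for *Fdps* (0.56 and -0.15), 0.62 for *Insig1* (0.41 and -0.21) and 0.60 for *Mvd* (0.35 and -0.25). With 1 array per condition these differences were not tested.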

How the results depend on the processing

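In the 7 contrasts the median differences of the 29 genes, the sterol enzymes and the fatty acid genes kept their sign under every alternative run for them. The largest move was 0.05, in that of the 29 in Th9(IL4+IL-1b) against classic Th9(IL4+TGFb) cells. Means in place of medians were run for the 29 only. For the fatty acid genes the mean had the other sign in Th9(IL4+IL-1b) against classic Th9(IL4+TGFb) cells (-0.07, median 0.04). The same held in classic Th9(IL4+TGFb) against Th2 cells (0.04, median -0.05). In Th9(IL4+TGF-b+IL-1b) against Th9(IL4+IL-1b) cells the median of the 29 lay between 0.19 and 0.27. The count of genes past the threshold depends on the threshold. At a log2 difference of 0.32 in either direction it was 2 (6.9%, against 21% of all genes) in Th9(IL4+IL-1b) against classic Th9(IL4+TGFb) cells, 2 (6.9%, against 15.2%) in Th9(IL4+IL-1b) against Th2 cells, 12 (41.4%, against 11.7%) in Th9(IL4+TGF-b+IL-1b) against classic Th9(IL4+TGFb) cells, 6 (20.7%, against 14.1%) in classic Th9(IL4+TGFb) against Th2 cells, 8 (27.6%, against 16.4%) in Th9(IL4+TGF-b+IL-1b) against Th9(IL4+IL-1b) cells, 10 (34.5%, against 18.6%) in Th1 against Th2 cells and 4 (13.8%, against 22.6%) in Th9(IL4+IL-1b) against Th1 cells. At 2-fold it was 0 in all 7. After a second quantile normalization 1 gene, *Abca1* at -0.59, passed 1.5-fold in Th9(IL4+IL-1b) against Th1 cells. The other alternatives changed no count at 1.5-fold. The filter on low values could change none, because all 29 genes lie above its limit, the median of all values. The mean over clusters could change only *Scap*. No paired analysis was possible because each condition has 1 array. No replicate could be left out for the same reason, and the spread between cultures of a condition is unknown.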
